A study of Mus musculus with 20 samples.

Results

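The extracellular matrix and stellate cell genes of mouse liver were examined as a list of 43 genes. They were grouped by function and chosen with earlier results of these data known. The list holds collagens, proteoglycans, matrix glycoproteins, crosslinking enzymes, metalloproteinases and their inhibitors, stellate cell proteins, and the growth factors and receptors that act on them. Of these, 40 were matched to a probe set of the Mouse 430 2.0 array, among 18193 genes read in all, and each is given by the probe set with the highest mean log2 intensity over the 20 arrays. Fbn1, Spp1 and Loxl2 were not analysed here. The study compared 4 groups of 5 individual livers, 1 array each: Scd1-/- on the very low fat (VLF) diet TD03045 from Harlan Teklad, Scd1+/+ on the same diet, Scd1-/- on chow and Scd1+/+ on chow. Scd1 encodes stearoyl-CoA desaturase 1, the enzyme that puts a double bond into saturated fatty acids, and the stated purpose was to find expression changes particular to Scd1-/- livers on the VLF diet. The sources used here do not give the strain, the kind of Scd1 allele, age, sex or time on the diet.

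Hepatic stellate cells lie between the sinusoidal endothelium and the hepatocytes, where they store vitamin A as retinyl esters. When activated they lose that store, take up contractile and filament proteins, respond to PDGF and TGF-beta, and lay down fibrillar collagen and proteoglycans, a course known from scarring of the liver. Matrix amount is set by synthesis and by the balance of metalloproteinases, which cut matrix, and TIMPs, which block them. Some matrix proteins of the liver are made largely by hepatocytes, among them plasma fibronectin and type XVIII collagen.

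Values are normalized intensities, scaled so that each array has the same median of 34.45, and a floor of 16 was set for dim probe sets. The 5 values of a group are given in the order of livers 1 to 5. Normalized Scd1 intensity was 27.2 to 37.0 in Scd1-/- VLF livers and 16890 to 20390 in Scd1+/+ VLF livers, and on chow 29.2 to 58.0 in Scd1-/- livers and 6475 to 10360 in Scd1+/+ livers, so the genotype labels fitted this gene in all 20 livers. The first principal component held 65.9% of the variance and set the Scd1-/- VLF livers (51.6 to 61.4) apart from the other groups (-29.7 to 2.61). Scd1-/- chow liver 3 stood apart within its group (first component 2.61, against -19.1 to -15.1 in the other 4, and second component 37.6, against 6.92 to 15.1). The actin 3'/5' ratio, a sign of RNA and labelling quality, was 1.69 to 1.96 in Scd1-/- VLF livers and 1.95 to 2.39 in Scd1+/+ VLF livers, and 2.10 to 2.37 in Scd1-/- and 2.49 to 3.07 in Scd1+/+ livers on chow. It therefore moved with the groups, and its part in the results was not tested. Whole liver was measured, so fewer cells of a type and less RNA per cell cannot be told apart.

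RefSeq (build GRCm38.p6) gave 26 promoter windows for 24 of the 40 genes. The 250 bases before each start are printed for the 4 genes with the smallest adjusted p between Scd1-/- and Scd1+/+ livers on the VLF diet among those with a window, since these are the changes the results turn on. Capitals mark letters of 5 searched motifs, on both strands: AP-1 (TGANTCA), SMAD (CAGAC), TEAD (GGAATG), SP1 (GGGCGG) and the CArG box of smooth muscle genes. The CArG box was searched in its strict form, with only A or T letters between CC and GG. An SP1 match on the other strand reads CCGCCC, a SMAD match GTCTG and a TEAD match CATTCC. Col18a1, which fell, has a pair of RefSeq starts, and the other 3 genes rose. The adjusted p of Mmp13, by which it was picked, rests on groups wholly at the floor.
Col18a1, chr10:77166531-77166780, minus strand: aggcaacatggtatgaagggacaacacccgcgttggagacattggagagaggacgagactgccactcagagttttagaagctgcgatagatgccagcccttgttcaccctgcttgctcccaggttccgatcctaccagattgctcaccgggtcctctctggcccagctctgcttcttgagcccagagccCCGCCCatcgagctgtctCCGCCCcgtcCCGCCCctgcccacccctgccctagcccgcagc
Col18a1, chr10:77113706-77113955, minus strand: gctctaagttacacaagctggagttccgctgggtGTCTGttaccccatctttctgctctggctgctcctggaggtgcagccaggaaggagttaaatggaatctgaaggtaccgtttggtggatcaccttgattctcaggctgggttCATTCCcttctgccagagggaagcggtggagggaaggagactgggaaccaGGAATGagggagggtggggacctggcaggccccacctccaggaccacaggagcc
Timp1, chrX:20869916-20870165, plus strand: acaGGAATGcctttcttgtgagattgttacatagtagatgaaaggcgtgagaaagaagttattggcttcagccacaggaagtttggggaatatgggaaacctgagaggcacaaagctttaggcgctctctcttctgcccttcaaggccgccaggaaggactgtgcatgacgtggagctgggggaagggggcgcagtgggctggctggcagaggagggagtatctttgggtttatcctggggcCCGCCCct
Vim, chr2:13574061-13574310, plus strand: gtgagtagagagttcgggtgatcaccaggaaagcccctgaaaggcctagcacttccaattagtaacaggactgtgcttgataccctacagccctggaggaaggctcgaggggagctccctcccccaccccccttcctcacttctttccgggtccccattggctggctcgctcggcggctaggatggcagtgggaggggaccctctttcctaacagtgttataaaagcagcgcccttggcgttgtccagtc
Mmp13, chr9:7272264-7272513, plus strand: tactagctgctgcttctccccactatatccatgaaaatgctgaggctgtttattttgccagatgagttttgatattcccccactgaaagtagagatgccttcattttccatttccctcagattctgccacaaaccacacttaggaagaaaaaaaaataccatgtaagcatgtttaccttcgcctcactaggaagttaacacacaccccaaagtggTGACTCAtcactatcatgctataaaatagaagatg

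Mmp13 carries 1 AP-1 match 35 bases before its start, the upstream Col18a1 window 3 SP1 matches, the other Col18a1 window 1 SMAD and 2 TEAD matches, Timp1 1 TEAD and 1 SP1 match, and Vim no match. AP-1 letters were found in 2 of the 26 windows (Mmp13 and Col6a1), against 6.75% of 32851 RefSeq promoters of the same length. SMAD letters were in 11 windows against 42.2% of promoters, TEAD letters in 6 against 12.6%, SP1 letters in 14 against 32.7%, and a CArG box in 0 against 1.47%. Other forms of the CArG box were not searched, and Tagln had no window, so the 0 does not show that these genes lack one. These matches describe letters only.

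On the VLF diet, 24 of the 40 genes rose in Scd1-/- livers relative to Scd1+/+ livers, 4 fell and 12 were not called. A call means a limma adjusted p under 0.05 over all 45037 probe sets, and among all 16196 measurable genes 21.5% were called up and 25.8% down (47.4% in either direction). The 5 Scd1-/- livers lay wholly above the 5 Scd1+/+ livers for 20 of the 40 genes and wholly below for 3, against 16.4% and 17.5% of all genes. Mmp13 is in both counts of rises, with every Scd1+/+ liver at the floor. The median log2 difference was 0.45 over the 40 genes and -0.062 over all genes. The genes that rose included type I, III and IV collagens, decorin, lumican, Timp1, Mmp14, vimentin and both PDGF receptors, and those that fell were Col18a1, Col15a1, Fn1 and Lrat. With arrays scaled on the 18 hybridization controls the medians were 0.82 over the 40 genes and 0.14 over all genes, and 25 genes were up and 1 down (96.2% up, against 85.7% in the values reported here). The share of all genes called was not taken with these controls, so the 25 cannot be read as an excess. Of the 4 falls, that of Col18a1 was still called under this scaling.

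**Figure D1:**
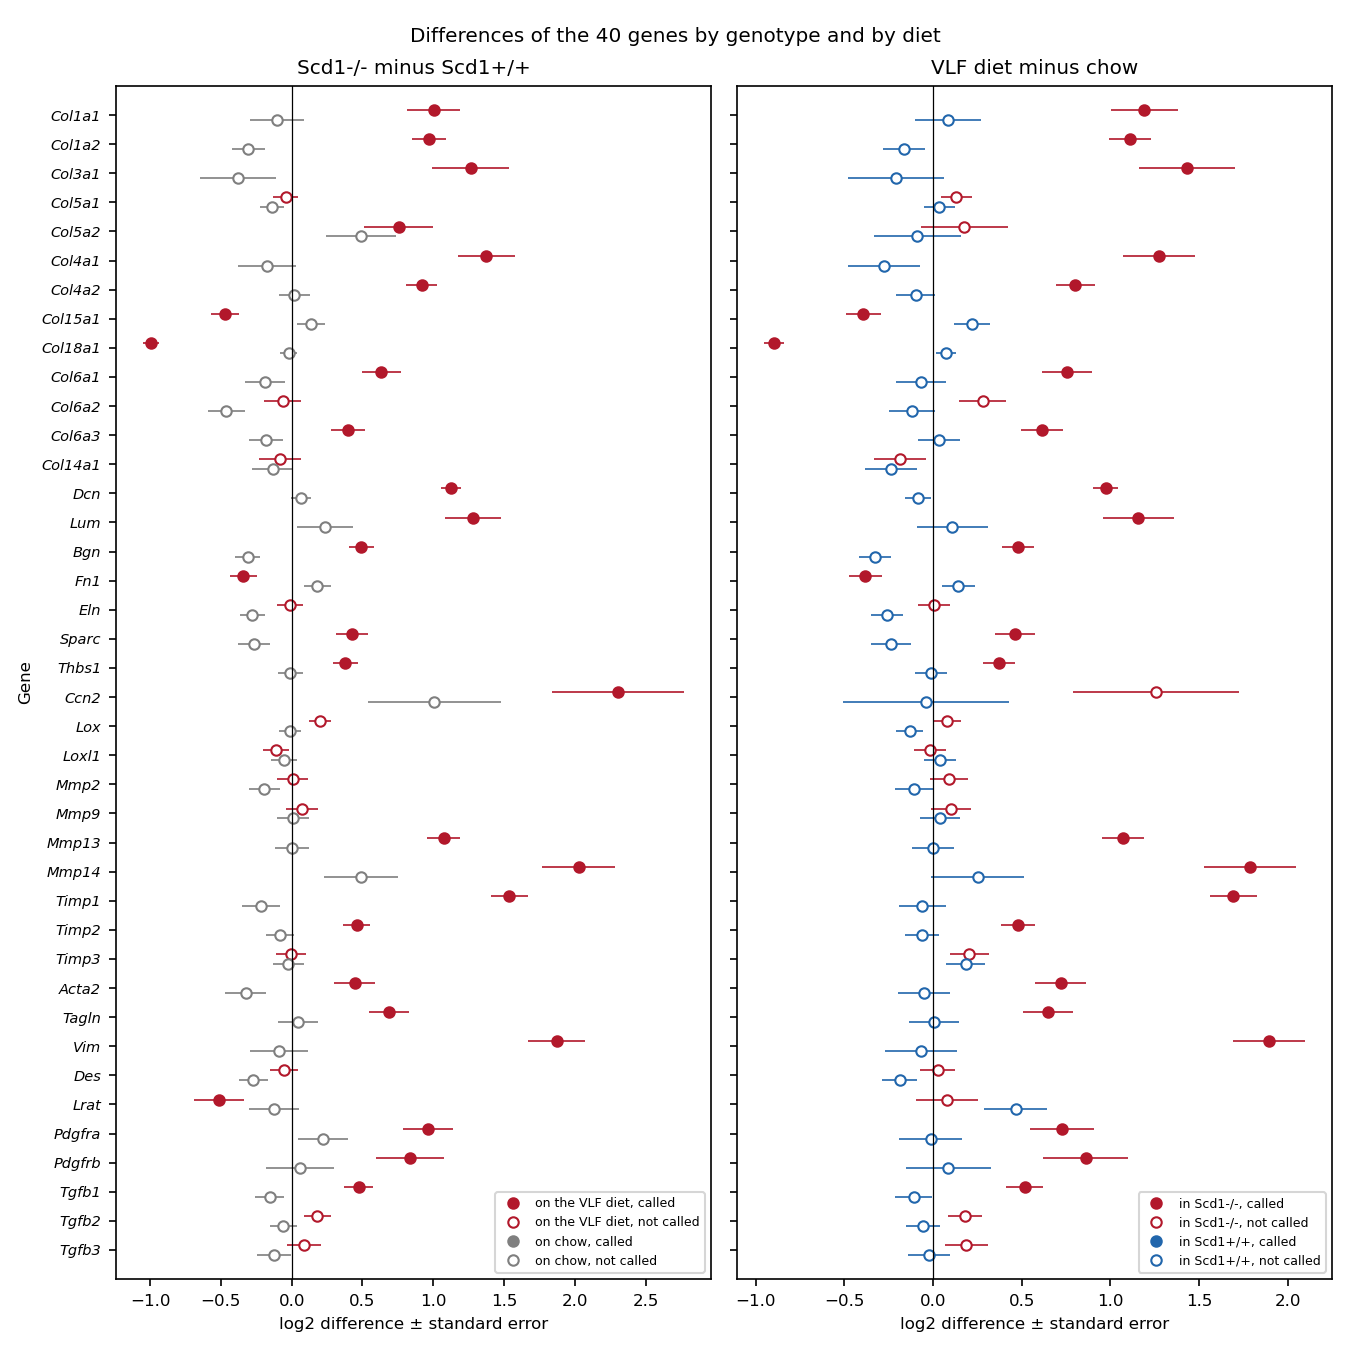
Log2 differences with their standard errors for the 40 genes, Scd1-/- minus Scd1+/+ on the left and VLF diet minus chow on the right, with filled points called by limma. The called points are those of Scd1-/- VLF livers against Scd1+/+ VLF livers and against Scd1-/- chow livers, 24 up and 4 down on the left and 22 up and 3 down on the right, while no gene was called on chow or between the diets in Scd1+/+ livers.

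Of the TGF-beta ligands, which drive matrix synthesis by stellate cells, Tgfb1 rose and the other 2 were not called. Tgfb1 had 131, 124, 109, 116 and 113 in Scd1-/- VLF livers, against 83.2, 79.8, 84.5, 90.1 and 88.5 in Scd1+/+ VLF livers. All 5 Scd1-/- livers lay above the Scd1+/+ livers (log2 difference 0.47 ± 0.10, adjusted p = 0.00152). The call was lost with the mean of its probe sets (0.16, adjusted p = 0.0689), and the dimmer probe set gave -0.16 (adjusted p = 0.466). On chow it ranged over 72.5 to 95.7 in Scd1-/- and 75.5 to 122 in Scd1+/+ livers, with Scd1+/+ liver 5 the highest of the chow livers. Tgfb3 overlapped on the VLF diet (36.7 to 59.1 in Scd1-/-, 35.0 to 44.8 in Scd1+/+, log2 difference 0.087 ± 0.12, adjusted p = 0.743). Tgfb2 was at or near the floor, at 16 in 2 Scd1-/- VLF livers and in all 5 Scd1+/+ VLF livers, with its highest value, 26.1, in Scd1-/- liver 3.

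Both receptors for PDGF, the growth factor that makes stellate cells divide, rose on the VLF diet. Pdgfra had 123, 109.8, 151, 83.0 and 95.0 in Scd1-/- livers, against 50.5, 64.3, 37.4, 81.3 and 57.8 in Scd1+/+ livers. The lowest Scd1-/- value lay just above the highest Scd1+/+ value (log2 difference 0.96 ± 0.18, adjusted p = 0.000316). Pdgfrb had 166, 117, 219, 112 and 119 in Scd1-/- livers, against 86.0, 81.7, 62.7, 94.2 and 76.1 in Scd1+/+ livers. Liver 3 was the highest Scd1-/- liver for both receptors, and the Pdgfrb groups did not overlap (log2 difference 0.83 ± 0.24, adjusted p = 0.0106). The Pdgfrb call was lost with its dimmer, single-gene probe set (0.16, adjusted p = 0.28, and 0.25, adjusted p = 0.0797, between the diets in Scd1-/- livers). On chow Pdgfra ranged over 60.0 to 80.7 in Scd1-/- and 44.9 to 65.1 in Scd1+/+ livers, and Pdgfrb over 56.3 to 96.9 and 51.1 to 132 in the same groups, each overlapping.

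Vim, the intermediate filament of mesenchymal cells and of leukocytes, was the filament gene with the largest rise. Vim had 1067, 962, 855, 739.6 and 561 in Scd1-/- VLF livers, against 184, 297, 181, 270.2 and 209.5 in Scd1+/+ VLF livers, a 3.66-fold rise (log2 difference 1.87 ± 0.20, adjusted p = 7.08e-07). Every Scd1-/- liver lay above every Scd1+/+ liver. Tagln, an actin-binding protein of smooth muscle and myofibroblasts, had 107, 109, 139.8, 73.5 and 91.1 in Scd1-/- livers, against 55.3, 58.2, 68.9, 68.6 and 66.4 in Scd1+/+ livers. Its lowest Scd1-/- liver, number 4, lay above the highest Scd1+/+ liver (log2 difference 0.69 ± 0.14, adjusted p = 0.000776). Des, the desmin filament of stellate and muscle cells, overlapped throughout (65.0 to 81.9 in Scd1-/- and 68.2 to 91.4 in Scd1+/+ VLF livers, log2 difference -0.055 ± 0.099, adjusted p = 0.869).

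Acta2, the smooth muscle actin used as the marker of activated stellate cells, had 214, 250, 192, 197 and 135 in Scd1-/- VLF livers, against 137, 151, 162, 122 and 144 in Scd1+/+ VLF livers. Liver 5 of the Scd1-/- group lay within the Scd1+/+ range, and the rise was small (log2 difference 0.45 ± 0.14, adjusted p = 0.0232). It was not called without Scd1-/- VLF liver 1 (0.41, adjusted p = 0.0569), Scd1-/- VLF liver 2 (0.35, adjusted p = 0.0663) or Scd1+/+ VLF liver 4 (0.39, adjusted p = 0.0582). The probe set read for Acta2 is of a kind shared between transcripts, and a dim single-gene probe set gave -0.15 (adjusted p = 0.239). With the mean of its probe sets the difference was 0.10 (adjusted p = 0.166).

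Lrat, which esterifies retinol for storage and marks resting stellate cells, was lower in Scd1-/- than in Scd1+/+ livers on the VLF diet. It had 166, 89.2, 159.9, 142 and 170.5 in Scd1-/- livers, against 233, 225, 158, 185 and 222 in Scd1+/+ livers. Scd1-/- liver 2 was low and the other 4 lay below the Scd1+/+ median, with overlap (log2 difference -0.51 ± 0.18, adjusted p = 0.03). On chow the ranges were 93.6 to 167 in Scd1-/- and 133 to 162 in Scd1+/+ livers, and 4 of the Scd1+/+ VLF livers held the highest values of all 20 livers. The call was lost without Scd1-/- VLF liver 2 (-0.35, adjusted p = 0.0811) or without Scd1+/+ VLF liver 1 (-0.46, adjusted p = 0.0742), 2 (-0.48, adjusted p = 0.0669) or 5 (-0.48, adjusted p = 0.0668), under scaling on the hybridization controls (-0.14, adjusted p = 0.83) and with median scaling alone (-0.33, adjusted p = 0.235).

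Of the 5 fibrillar collagens, which form the tensile fibres of scar, 4 rose. Col1a1, the alpha 1 chain of type I collagen, had 69.0, 84.3, 135, 66.5 and 49.5 in Scd1-/- VLF livers, against 37.4, 39.6, 37.2, 47.2 and 30.8 in Scd1+/+ VLF livers. It rose 2.00-fold (log2 difference 1.00 ± 0.19, adjusted p = 0.000336), with liver 3 high among the Scd1-/- livers and the groups apart. Its partner chain Col1a2 had 275, 384, 363, 328 and 259.7 in Scd1-/- livers, against 133, 200.1, 154, 187 and 149 in Scd1+/+ livers (log2 difference 0.97 ± 0.12, adjusted p = 2.84e-06). The groups were again apart. Col3a1, the chain of type III collagen, had 889.6, 939, 900.0, 886 and 503 in Scd1-/- livers, against 235, 459, 288, 490.2 and 276 in Scd1+/+ livers. Liver 5 was far below the other 4 Scd1-/- livers yet above every Scd1+/+ liver (log2 difference 1.26 ± 0.27, adjusted p = 0.00113). Its dim single-gene probe set gave 0.095 and was not called (adjusted p = 0.192).

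The type V collagen chains, which set fibre width, were read at 143, 149, 139.7, 132 and 82.5 for Col5a2 in Scd1-/- VLF livers, against 74.1, 75.7, 78.8, 82.3 and 65.6 in Scd1+/+ VLF livers. Scd1-/- liver 5 lay a fraction above the highest Scd1+/+ liver, and the difference was 0.75 ± 0.25, adjusted p = 0.0233 on the log2 scale. The call was lost without Scd1-/- VLF liver 1 (0.71, adjusted p = 0.0529), 2 (0.70, adjusted p = 0.0506) or 3 (0.72, adjusted p = 0.0521) or Scd1+/+ VLF liver 5 (0.71, adjusted p = 0.0542), and with the mean of its probe sets (0.37, adjusted p = 0.133). Col5a1 was at 85.8 to 106 in Scd1-/- and 92.7 to 106 in Scd1+/+ VLF livers (log2 difference -0.043 ± 0.087, adjusted p = 0.909).

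The 4 collagens of basement membranes and their surroundings were all called, 2 up and 2 down. Col4a1, a chain of the type IV network, had 653, 593, 926, 409 and 558 in Scd1-/- VLF livers, against 214, 292, 190.2, 273 and 215 in Scd1+/+ VLF livers. It rose 2.59-fold, with the groups apart (log2 difference 1.38 ± 0.20, adjusted p = 2.55e-05). Its partner Col4a2 had 312, 323, 429, 272 and 288 in Scd1-/- livers, against 156, 191, 161, 188 and 156 in Scd1+/+ livers (log2 difference 0.92 ± 0.11, adjusted p = 2.45e-06). Liver 3 was the highest Scd1-/- liver for both chains and liver 4 the lowest.

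Col18a1, the type XVIII collagen that yields endostatin, had 1296, 1415, 1427, 1326 and 1166 in Scd1-/- VLF livers, against 2678, 2818, 2544, 2422 and 2714 in Scd1+/+ VLF livers. This was a 1.99-fold fall with little spread within either group (log2 difference -0.99 ± 0.059, adjusted p = 3e-10). On chow it was at 2467 ± 146 in Scd1-/- and 2503 ± 113 in Scd1+/+ livers (mean ± SD, n = 5 each), both means within the range of Scd1+/+ VLF livers. Col15a1, the related type XV collagen, had 32.8, 35.8, 36.8, 37.0 and 42.7 in Scd1-/- VLF livers, against 66.3, 48.6, 50.5, 47.1 and 45.7 in Scd1+/+ VLF livers. Scd1+/+ liver 1 was the highest of all 20, and the groups were apart (log2 difference -0.47 ± 0.099, adjusted p = 0.00095). With the hybridization control scaling this fall was not called (-0.27, adjusted p = 0.193).

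Among the beaded filament chains of type VI collagen, Col6a1 had 134, 116, 112, 121 and 78.6 in Scd1-/- VLF livers, against 72.1, 83.9, 52.7, 77.8 and 74.4 in Scd1+/+ VLF livers. Liver 5 of the Scd1-/- group lay inside the Scd1+/+ range and the other 4 above it (log2 difference 0.63 ± 0.14, adjusted p = 0.00149). Col6a3 had 128, 146, 142, 101 and 96.0 in Scd1-/- livers, against 77.7, 105, 82.9, 103 and 93.5 in Scd1+/+ livers. Livers 4 and 5 lay inside the Scd1+/+ range (log2 difference 0.40 ± 0.12, adjusted p = 0.0152), and an exact permutation test over the livers gave p = 0.0556 (two-sided, unadjusted). Col6a2 overlapped on the VLF diet (log2 difference -0.062 ± 0.13, adjusted p = 0.928), as did Col14a1, a fibril-associated collagen (log2 difference -0.084 ± 0.15, adjusted p = 0.856).

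The 3 small leucine-rich proteoglycans, which coat collagen fibrils and bind TGF-beta, all rose. Dcn, decorin, had 3508, 4019, 4187, 3695 and 3464 in Scd1-/- VLF livers, against 1694, 1816, 1512, 1739 and 1903 in Scd1+/+ VLF livers. It rose 2.18-fold, and the 15 livers of the other groups reached at most 2168 (log2 difference 1.12 ± 0.072, adjusted p = 8.61e-10). Lum, lumican, had 394, 349, 359, 269 and 229 in Scd1-/- livers, against 131, 147, 81.9, 164 and 139 in Scd1+/+ livers (log2 difference 1.28 ± 0.20, adjusted p = 4.39e-05). Bgn, biglycan, had 763, 1083, 860.3, 1100 and 870.5 in Scd1-/- livers, against 622, 746, 613, 634 and 685 in Scd1+/+ livers (log2 difference 0.49 ± 0.090, adjusted p = 0.000268). For both the groups were apart, and the lowest Bgn value in Scd1-/- VLF livers stood only a little above the highest in Scd1+/+ VLF livers.

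**Figure D2:**
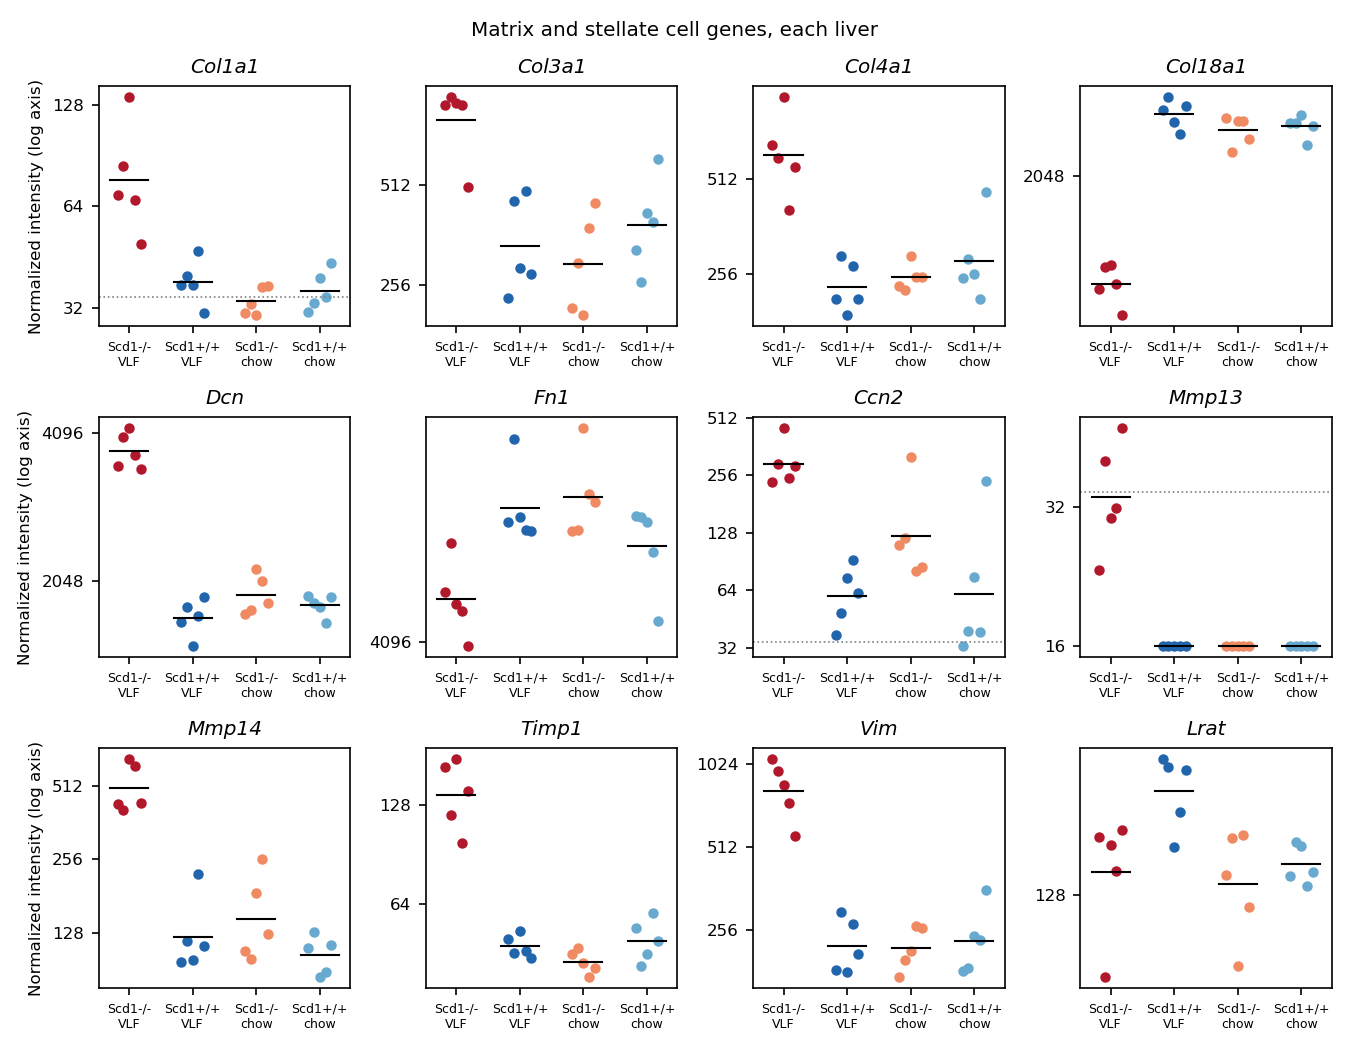
Normalized intensity of 12 genes in every liver on a log axis, with groups from left to right Scd1-/- VLF, Scd1+/+ VLF, Scd1-/- chow and Scd1+/+ chow, bars at the geometric mean and a dotted line at the common array median of 34.45 where it falls in range. Dcn lies at 3464 to 4187 in Scd1-/- VLF livers and at 1512 to 1903 in Scd1+/+ VLF livers, Col18a1 and Fn1 show the opposite order, and Mmp13 is above the floor of 16 in the Scd1-/- VLF livers alone.

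Of the 5 glycoproteins and elastic fibre genes read, 3 rose and 1 fell. Ccn2, connective tissue growth factor, a secreted matricellular protein induced by TGF-beta, had 235, 294, 453, 247 and 287 in Scd1-/- VLF livers, against 37.1, 48.4, 73.9, 92.1 and 62.1 in Scd1+/+ VLF livers. The groups were apart and the rise 4.94-fold (log2 difference 2.30 ± 0.47, adjusted p = 0.000729). On chow Ccn2 had 109.8, 119.9, 318, 80.2 and 84.8 in Scd1-/- livers, against 32.5, 38.9, 74.7, 38.5 and 238 in Scd1+/+ livers. Scd1-/- chow liver 3 and Scd1+/+ chow liver 5 stood far above the rest of their groups, at levels of the Scd1-/- VLF livers. Sparc, osteonectin, a collagen-binding glycoprotein, had 869, 786, 900.5, 668 and 706 in Scd1-/- VLF livers, against 586, 608, 544, 577 and 589.5 in Scd1+/+ VLF livers, with the groups apart (log2 difference 0.43 ± 0.11, adjusted p = 0.0063). The Sparc call was lost with the mean of its probe sets (0.19, adjusted p = 0.0881), and its dimmest probe set was called lower (-0.46, adjusted p = 0.0287).

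Thbs1, thrombospondin 1, which can release active TGF-beta from its latent form, had 19.8, 18.7, 24.9, 21.0 and 26.3 in Scd1-/- VLF livers, against 16.9, 16, 16.5, 16 and 19.3 in Scd1+/+ VLF livers. The lowest Scd1-/- value lay under the highest Scd1+/+ value. All these values were below the array median and 2 of the Scd1+/+ livers were at the floor, so the log2 difference (0.38 ± 0.090, adjusted p = 0.0028) may understate the change. Fn1, fibronectin, had 4660, 5298, 4521, 4438 and 4045 in Scd1-/- VLF livers, against 5589, 6936, 5659, 5472 and 5461 in Scd1+/+ VLF livers. It fell with the groups apart (log2 difference -0.34 ± 0.094, adjusted p = 0.00819), although under the hybridization control scaling the difference was -0.090 and not called (adjusted p = 0.921). Nor was it called with the mean of its probe sets (-0.25, adjusted p = 0.139) or the probe set of largest variance (-0.16, adjusted p = 0.743). Eln, elastin, was at 73.2 to 90.4 in Scd1-/- and 71.3 to 87.4 in Scd1+/+ VLF livers (log2 difference -0.013 ± 0.089, adjusted p = 1).

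Neither lysyl oxidase read, the enzymes that crosslink collagen and elastin, was called. Lox, below the array median in every liver, was at 22.9 to 26.5 in Scd1-/- and 19.4 to 24.0 in Scd1+/+ VLF livers (log2 difference 0.20 ± 0.078, adjusted p = 0.054). It passed the threshold without Scd1-/- VLF liver 2 (0.24, adjusted p = 0.0281) or Scd1+/+ VLF liver 1 (0.23, adjusted p = 0.0389). Loxl1 was at 35.0 to 44.7 in Scd1-/- and 40.9 to 46.4 in Scd1+/+ VLF livers (log2 difference -0.11 ± 0.091, adjusted p = 0.44), but its other probe set, about as bright, rose (0.70, adjusted p = 0.000934).

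Of the metalloproteinases, the collagenase Mmp13 and the membrane-bound Mmp14 rose, and the gelatinases Mmp2 and Mmp9 were not called. Mmp13, the interstitial collagenase of mice, had 23.4, 40.2, 30.3, 31.8 and 47.3 in Scd1-/- VLF livers, and was at the floor of 16 in all 5 Scd1+/+ VLF livers and in all 10 chow livers. Its rise was therefore at least 2.10-fold against the floor (adjusted p = 8.87e-07), and with a floor of 32 it was not called (log2 difference 0.18, adjusted p = 0.117). Mmp13 was measurable through the Scd1-/- VLF livers alone. The livers at the floor have no spread, so the first of these p-values does not measure the spread between livers. Mmp14, which cuts collagen at the cell surface and activates pro-MMP2, had 432, 409.5, 662, 621 and 437 in Scd1-/- VLF livers, against 96.6, 119, 98.2, 223 and 113 in Scd1+/+ VLF livers. It rose 4.07-fold (log2 difference 2.03 ± 0.26, adjusted p = 5.39e-06), with Scd1+/+ liver 4 high in its group and still below every Scd1-/- liver. Mmp2 was at 54.3 to 73.2 in Scd1-/- and 56.3 to 70.4 in Scd1+/+ VLF livers, and Mmp9 at 45.4 to 58.0 in Scd1-/- and 40.6 to 53.6 in Scd1+/+ VLF livers (log2 differences 0.0067 ± 0.11 and 0.073 ± 0.11).

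Of the metalloproteinase inhibitors, Timp1 and Timp2 rose. Timp1, the inhibitor induced in injured liver, had 168, 120.0, 177, 98.3 and 142 in Scd1-/- VLF livers, against 50.0, 45.5, 52.9, 46.0 and 43.8 in Scd1+/+ VLF livers. The rise was 2.90-fold with the groups well apart (log2 difference 1.54 ± 0.13, adjusted p = 4.1e-08). Timp2 had 192, 268, 191, 222 and 166 in Scd1-/- livers, against 156, 159, 152, 146 and 135 in Scd1+/+ livers. Scd1-/- liver 2 was the highest, and the groups were apart (log2 difference 0.46 ± 0.097, adjusted p = 0.00101). The probe set of largest variance gave -0.30 for Timp2 (adjusted p = 0.159), and with it neither the diet difference in Scd1-/- livers (0.0046, adjusted p = 1) nor the interaction (0.15, adjusted p = 0.881) was called. Timp3, which is bound to matrix, was at 91.9 to 141 in Scd1-/- and 104 to 118 in Scd1+/+ VLF livers (log2 difference -0.0047 ± 0.11, adjusted p = 1).

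Between the diets in Scd1-/- livers, 22 of the 40 genes rose on the VLF diet, 3 fell and 15 were not called, against 19.2% of all genes up and 19.9% down (39.1% in either direction). The median log2 difference was 0.48 over the 40 genes and -0.030 over all genes. The groups were apart with the VLF livers higher for 19 of the 40 genes and lower for 3, against 13.7% and 14.6% of all genes. This comparison shares the Scd1-/- VLF livers with the one above, so the values stand side by side. Vim differed by 1.89 ± 0.20 on the log2 scale here and 1.87 ± 0.20 against Scd1+/+ VLF livers, Mmp14 by 1.79 ± 0.26 here and 2.03 ± 0.26 there, Timp1 by 1.69 ± 0.13 and 1.54 ± 0.13, and Col3a1 by 1.43 ± 0.27 and 1.26 ± 0.27. Col1a1 differed by 1.19 ± 0.19 here and 1.00 ± 0.19 there, Dcn by 0.97 ± 0.072 and 1.12 ± 0.072, Acta2 by 0.72 ± 0.14 and 0.45 ± 0.14, and Col18a1 by -0.90 ± 0.059 and -0.99 ± 0.059.

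A few genes were called in one of these comparisons and not in the other. Ccn2 was not called between the diets in Scd1-/- livers (log2 difference 1.26 ± 0.47, adjusted p = 0.0552). It was called without Scd1-/- chow liver 3, the liver that stood apart on the principal components (1.60, adjusted p = 0.0107). Col5a2 (0.18 ± 0.25, adjusted p = 0.808) and Lrat (0.077 ± 0.18, adjusted p = 0.999) were also not called between the diets in Scd1-/- livers. With the hybridization control scaling the medians were 0.88 over the 40 genes and 0.30 over all genes, and 33 genes were up and 1 down (97.1% up, against 88.0%). The median of all genes also moved up under this scaling, and the share of them called was not taken. Fn1 (-0.040, adjusted p = 1) and Col15a1 (-0.035, adjusted p = 1) were then no longer called lower.

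On chow, limma called 0 of the 40 genes between Scd1-/- and Scd1+/+ livers, with 8 at an unadjusted p under 0.05. The share of all genes at that unadjusted threshold was not taken, so the 8 cannot be read as an excess. Of all genes 1.38% were called up and 1.91% down (3.30% in either direction), and the groups were apart in 2.75% upward and 4.12% downward. The median log2 difference was -0.087 over the 40 genes and -0.018 over all genes. The chow groups did not overlap for 2 of the 40 genes, a share near the 4.12% of all genes apart downward. One was Bgn, with 609.5, 696, 626, 681 and 722 in Scd1-/- livers, against 802, 772, 859.5, 795 and 908 in Scd1+/+ livers (log2 difference -0.31 ± 0.090, adjusted p = 0.0632). The other was Col6a2, with 164, 198, 122, 176 and 204.7 in Scd1-/- livers, against 248, 220.2, 226, 279 and 204.9 in Scd1+/+ livers (log2 difference -0.46 ± 0.13, adjusted p = 0.0601). Both were lower in every Scd1-/- chow liver than in every Scd1+/+ chow liver, and neither passed the adjusted threshold.

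Single livers decided some chow results. Col6a2 was called lower in Scd1-/- livers without Scd1-/- chow liver 2 (-0.52, adjusted p = 0.0418) or 5 (-0.53, adjusted p = 0.0493) or Scd1+/+ chow liver 5 (-0.51, adjusted p = 0.0495). Without that last liver, Ccn2 (1.5, adjusted p = 0.0388, against 1.01 ± 0.47, adjusted p = 0.22 with it) and Col5a2 (0.80, adjusted p = 0.0207, against 0.49 ± 0.25, adjusted p = 0.261 with it) were called higher. Scd1+/+ chow liver 5 was at 238.5 for Ccn2 and 187.1 for Col5a2, against 32.5 to 74.7 and 57.2 to 75.2 in the other 4 livers of its group. It also held the highest Col3a1, Col4a1 and Vim values of the Scd1+/+ chow livers.

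Between the diets in Scd1+/+ livers, limma again called 0 of the 40 genes, with 4 at an unadjusted p under 0.05 (Col15a1, Bgn, Eln and Lrat). Here too no share of all genes was taken at the unadjusted threshold. Of all genes 0.895% were called up and 0.877% down (1.77% in either direction), and the groups were apart in 2.08% upward and 2.70% downward. The median log2 difference was -0.055 over the 40 genes and -0.017 over all genes. Bgn alone among the 40 had groups that did not overlap, a share near the 2.70% of all genes apart downward. It was at 613 to 746 in Scd1+/+ VLF livers and 772 to 908 in Scd1+/+ chow livers (log2 difference -0.33 ± 0.090, adjusted p = 0.0948). Lrat was at 158 to 233 in VLF and 133 to 162 in chow livers, with overlap (log2 difference 0.47 ± 0.18, adjusted p = 0.258).

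The interaction, the Scd1-/- minus Scd1+/+ difference on the VLF diet minus that on chow, tests whether the genotype difference depends on the diet. It was positive for 20 of the 40 genes and negative for 3, with 17 not called, against 13.6% of all genes positive and 13.6% negative (27.2% in either direction). Its median was 0.60 over the 40 genes and -0.0049 over all genes, and 1.01 and 0.33 under scaling on the hybridization controls, where 27 were positive and 1 negative (96.4% positive, against 87.0%). Under that scaling the share of all genes called was not taken. Vim (1.96 ± 0.29, adjusted p = 5.79e-05), Timp1 (1.75 ± 0.19, adjusted p = 1.93e-06), Col3a1 (1.64 ± 0.38, adjusted p = 0.00409) and Col4a1 (1.55 ± 0.29, adjusted p = 0.000568) had the largest positive values among those called. Mmp14 (1.54 ± 0.37, adjusted p = 0.0052), Col1a2 (1.28 ± 0.17, adjusted p = 1.72e-05), Col1a1 (1.11 ± 0.27, adjusted p = 0.00533) and Dcn (1.06 ± 0.10, adjusted p = 5.34e-07) followed, beside Mmp13 and Lum. For Mmp13 every group other than Scd1-/- VLF was at the floor. The negative ones were Col18a1 (-0.97 ± 0.083, adjusted p = 1.3e-07), Col15a1 (-0.61 ± 0.14, adjusted p = 0.00363) and Fn1 (-0.52 ± 0.13, adjusted p = 0.00798). The PDGF receptors were not called (0.74 ± 0.25, adjusted p = 0.0503 for Pdgfra and 0.77 ± 0.34, adjusted p = 0.14 for Pdgfrb), nor were Ccn2 (1.30 ± 0.66, adjusted p = 0.233), Col5a2 (0.26 ± 0.35, adjusted p = 0.847) and Lrat (-0.39 ± 0.25, adjusted p = 0.392).

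Of the 40 genes, 12 (Col5a1, Col6a2, Col14a1, Eln, Lox, Loxl1, Mmp2, Mmp9, Timp3, Des, Tgfb2 and Tgfb3) were called in none of these comparisons. The interaction of Tagln (0.64 ± 0.20, adjusted p = 0.0288) was lost without Scd1-/- chow liver 1 or 5, Scd1+/+ VLF liver 1 or 2, or Scd1+/+ chow liver 5 (adjusted p 0.0524 to 0.0575). That of Thbs1 (0.39 ± 0.13, adjusted p = 0.0402) was lost on leaving out any of 13 single livers (adjusted p at most 0.0791): Scd1-/- VLF 3 or 5, Scd1-/- chow 1, 2, 3 or 5, Scd1+/+ VLF 1, 2, 3 or 4, and Scd1+/+ chow 1, 2 or 5. That of Pdgfra was called without Scd1-/- VLF liver 4 or 5, Scd1-/- chow liver 3, Scd1+/+ VLF liver 2 or 4, or Scd1+/+ chow liver 1 (adjusted p 0.0133 to 0.0493).

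The 5 Scd1-/- VLF livers differed among themselves. Liver 3 had the highest value of the group for 15 of the 40 genes and liver 2 for 11, while liver 5 had the lowest for 15. The median deviation from the group mean over the 40 genes was 0.16 log2 in liver 3, 0.099 in liver 2, 0.011 in liver 1, -0.062 in liver 4 and -0.15 in liver 5. Liver 5 was the lowest of the group for Col1a1, Col1a2, Col3a1, Col5a2, Col6a1, Col6a3, Lum, Acta2 and Vim, yet had the highest Mmp13, Thbs1 and Tgfb3. Livers 1 to 5 thus held different mixes of the same genes, with no order implied by their numbers.

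Several of the 40 genes are neighbours in RefSeq (GRCm38.p6) with no protein-coding gene between them. Col4a1 and Col4a2 on chromosome 8, whose spans overlap, both rose on the VLF diet (1.38 and 0.92 log2), as did Dcn and Lum on chromosome 10 (1.12 and 1.28) and Col3a1 and Col5a2 on chromosome 1 (1.26 and 0.75). Of Col6a1 and Col6a2 on chromosome 10, Col6a1 rose (0.63) and Col6a2 was not called (-0.062).

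The array carries 88 probe sets for the 40 genes together, and several for 30 of them. Of 19 genes called between Scd1-/- and Scd1+/+ VLF livers that have another probe set, 9 had another called in the same direction and 1, Sparc, another called in the opposite direction. For Vim the other probe sets gave log2 differences of 1.54 and 1.99, for Mmp14 1.42 and 0.18 (the last not called), for Bgn 0.40 and 0.55, and for Col18a1 -1.40. For Sparc a second probe set gave 0.61 and the dimmest of the 3 gave -0.46. The dim second probe set of Dcn gave -0.14 (adjusted p = 0.186).

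**Figure D3:**
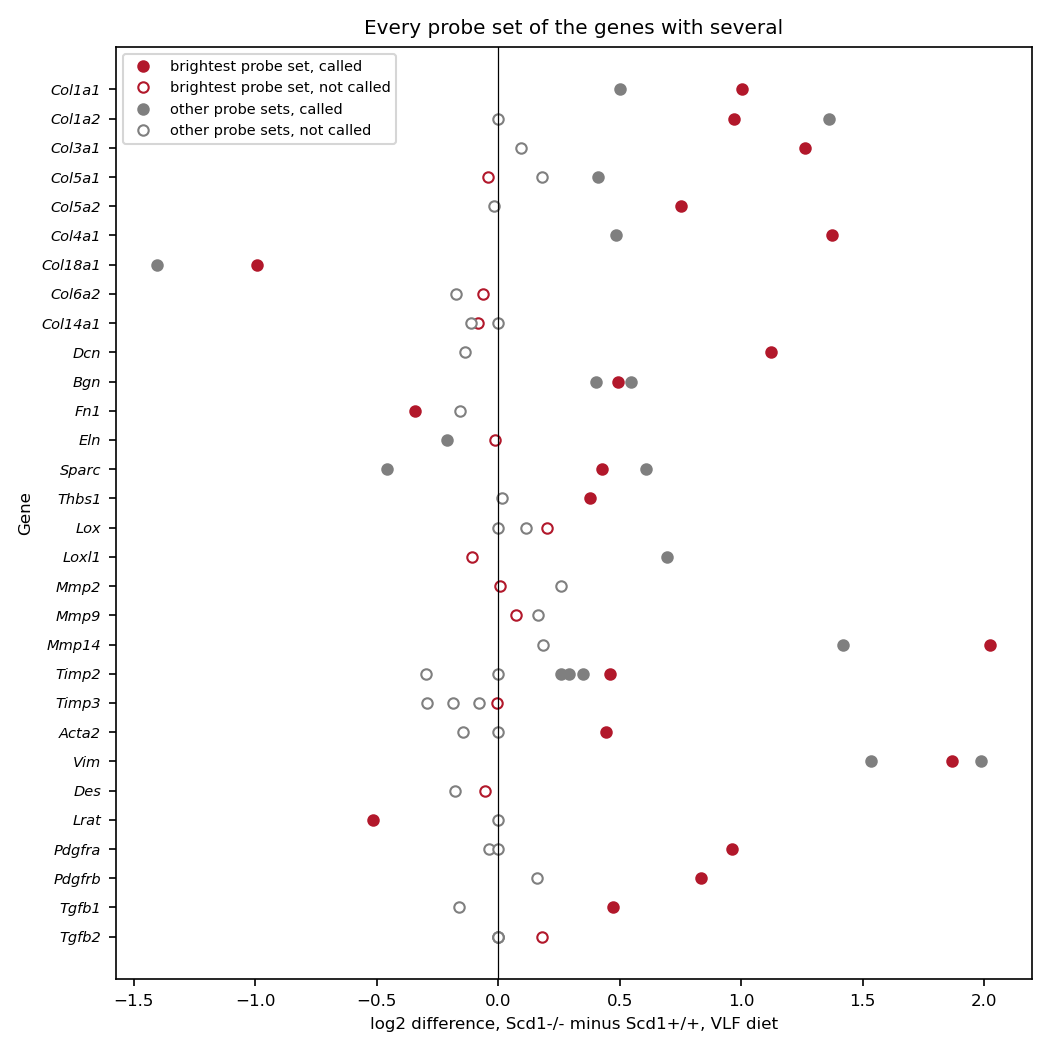
Log2 difference between Scd1-/- and Scd1+/+ VLF livers for each probe set of the 30 genes that have several, with the brightest in red, the others in grey and filled points called by limma. For Vim, Bgn and Col18a1 all probe sets are called in one direction, Sparc has called points on both sides of 0, and the 2 probe sets of Loxl1 lie at -0.11 and 0.70.

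The wider matrix and growth factor pathway was described with 105 further genes read, of which 39 rose, 12 fell and 54 were not called between Scd1-/- and Scd1+/+ VLF livers (limma, median log2 difference 0.0084), against 21.5% of all genes called up and 25.8% down. Some of these genes stand in more than 1 list. Of 9 TGF-beta target genes 6 rose and 0 fell, among them Ccn1 (1.32 ± 0.20, adjusted p = 4.08e-05), Skil (1.04 ± 0.15, adjusted p = 2.97e-05), Tgfbi (0.83 ± 0.12, adjusted p = 1.64e-05) and Tgif1 (0.68 ± 0.099, adjusted p = 2.41e-05). Of 23 TGF-beta receptors, latency proteins and signal proteins 8 rose and 4 fell. Tgfbr2, the type II receptor, had 548, 646, 679, 532 and 607 in Scd1-/- VLF livers, against 164, 187, 159, 195 and 142 in Scd1+/+ VLF livers (log2 difference 1.83 ± 0.093, adjusted p = 4.47e-11). It was also higher in Scd1-/- livers on chow (219 to 269 in Scd1-/-, 138 to 183 in Scd1+/+, log2 difference 0.58 ± 0.093, adjusted p = 0.0116). Itgav, a subunit of the integrins that release TGF-beta, rose (1.23 ± 0.079, adjusted p = 8.4e-10), while the ubiquitin ligase Smurf2 (-0.71 ± 0.086, adjusted p = 2.68e-06) and the latent TGF-beta binding protein Ltbp4 (-0.81 ± 0.10, adjusted p = 3.86e-06) fell. Ltbp4 was also called lower in Scd1-/- livers on chow (-0.39 ± 0.10, adjusted p = 0.0486).

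Of 15 genes of collagen synthesis and processing 8 rose and 1 fell (median log2 difference 0.35), including Ppib (0.76 ± 0.054, adjusted p = 3.38e-09) and Crtap (0.86 ± 0.082, adjusted p = 1.38e-07), which act in prolyl 3-hydroxylation, P4hb (0.53 ± 0.057, adjusted p = 7.08e-07), a subunit of prolyl 4-hydroxylase, and the collagen galactosyltransferase Colgalt1 (0.57 ± 0.067, adjusted p = 1.85e-06). Of the 4 PDGF ligands, Pdgfc (1.14 ± 0.14, adjusted p = 3.17e-06) and Pdgfa (0.29 ± 0.085, adjusted p = 0.0117) rose and Pdgfb (-0.20 ± 0.084, adjusted p = 0.0822) and Pdgfd (-0.026 ± 0.043, adjusted p = 0.839, at the floor in most livers) were not called.

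Of 31 basement membrane and other matrix proteins 8 rose, a share near the 21.5% of all genes called up, and 3 fell. Nid1, nidogen, which links laminin to type IV collagen, had 1390, 1472, 1461, 1003 and 1090 in Scd1-/- VLF livers, against 135, 203, 119, 200.1 and 150.2 in Scd1+/+ VLF livers, an 8.02-fold rise (log2 difference 3.00 ± 0.17, adjusted p = 2.1e-10). The groups were far apart, and on chow Nid1 ranged over 115 to 168 in Scd1-/- and 104 to 176 in Scd1+/+ livers. Lamc1, the laminin gamma 1 chain (1.01 ± 0.096, adjusted p = 1.35e-07), Postn, periostin (0.79 ± 0.15, adjusted p = 0.000424), and Sparcl1 (0.61 ± 0.10, adjusted p = 0.000141) also rose.

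Of 14 genes of plasmin and protease control 5 rose and 2 fell. Mmp12, the macrophage elastase, had 298, 328, 195, 153 and 178 in Scd1-/- VLF livers and was at the floor of 16 in the other 15 livers, at least a 13.8-fold rise against the floor (adjusted p = 1.21e-12). Those 15 livers have no spread, so the p-value does not measure the spread between livers. Mmp12 was measurable through the Scd1-/- VLF livers alone. Plaur, the urokinase receptor (1.92 ± 0.15, adjusted p = 1.58e-08), and Adamts1 (1.00 ± 0.16, adjusted p = 6.38e-05) rose, and Plg, the hepatocyte-made plasminogen (-0.67 ± 0.045, adjusted p = 1.55e-09), fell. Of 12 matrix receptors 4 rose and 2 fell, with Cd44, the hyaluronan receptor of many leukocytes and mesenchymal cells (2.13 ± 0.17, adjusted p = 2.04e-08), Itgb3 (1.14 ± 0.14, adjusted p = 2.89e-06) and Itga5 (0.35 ± 0.12, adjusted p = 0.0247) up and the collagen receptor Ddr2 (-0.30 ± 0.092, adjusted p = 0.0182) down.

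Markers of other cells were counted on the VLF diet against the same background of 21.5% of all genes called up and 25.8% down. All 13 macrophage and Kupffer cell markers rose between Scd1-/- and Scd1+/+ VLF livers, with a summed intensity of 15810 to 25270 in Scd1-/- VLF livers, 6454 to 7564 in Scd1+/+ VLF livers, 7768 to 11480 in Scd1-/- chow livers and 7701 to 8477 in Scd1+/+ chow livers. Gpnmb (3.93 ± 0.18, adjusted p = 1.35e-11), Cd68 (2.32 ± 0.13, adjusted p = 1.6e-10) and Ctss (2.12 ± 0.10, adjusted p = 2.71e-11) had the smallest adjusted p, and no marker of this list was at the floor. Of 8 neutrophil markers 3 rose and 1 fell (summed 1021 to 5171 in Scd1-/- and 465 to 576 in Scd1+/+ VLF livers), led by S100a8 (4.00 ± 0.51, adjusted p = 4.51e-06), S100a9 (3.16 ± 0.42, adjusted p = 9.11e-06) and Mmp8 (0.79 ± 0.16, adjusted p = 0.000769). Of 8 cholangiocyte markers 3 rose (summed 589 to 746 in Scd1-/- and 396 to 446 in Scd1+/+ VLF livers), Anxa3 (1.51 ± 0.11, adjusted p = 3.48e-09), Cldn4 (1.57 ± 0.16, adjusted p = 2.32e-07) and Sox9 (1.16 ± 0.12, adjusted p = 3.73e-07), with Cftr at the floor in all livers and Krt7 and Pkhd1 at the floor in some. Most of the neutrophil gap lay in S100a8 (mean ± SD 1142 ± 1020 in Scd1-/- and 56.5 ± 9.48 in Scd1+/+ VLF livers) and S100a9 (629 ± 526 and 57.6 ± 8.23). Scd1-/- VLF liver 1 had a neutrophil sum of 5171, against 1021 to 1710 in the rest of its group. The cholangiocyte gap lay in Anxa3 (237 and 81.9), Cldn4 (91.7 and 29.9) and Sox9 (68.9 and 30.0). Of the 8 neutrophil markers 4 were not called, and of the 8 cholangiocyte markers 5. The part of macrophages, neutrophils and cholangiocytes in the matrix gene differences was not tested.

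Resting stellate cell markers did not move together. Of 14 read, 4 rose and 4 fell, both shares near the background. Their summed intensity was 3507 to 3889 in Scd1-/- VLF livers, 3261 to 3962 in Scd1+/+ VLF livers, 3238 to 3768 in Scd1-/- chow livers and 3398 to 4247 in Scd1+/+ chow livers, with none at the floor. Ecm1 (0.31 ± 0.069, adjusted p = 0.00172) rose, and Ngfr (-0.45 ± 0.10, adjusted p = 0.00182) and Angptl6 (-0.41 ± 0.084, adjusted p = 0.000763) fell. Of 7 vascular smooth muscle markers 2 fell, a share near the background, and 5 were not called. The falls were those of Mylk (-0.89 ± 0.11, adjusted p = 3.3e-06) and Synpo2 (-0.29 ± 0.078, adjusted p = 0.00804). The summed intensity of the 7 was 352 to 425 in Scd1-/- and 494 to 575 in Scd1+/+ VLF livers. Most of that gap is Mylk itself (177 ± 28.7 in Scd1-/- and 325 ± 29.2 in Scd1+/+ VLF livers, mean ± SD, n = 5 each). Portal fibroblast markers gave 2 rises, Entpd2 (0.84 ± 0.088, adjusted p = 4.41e-07) and Cd34 (0.57 ± 0.14, adjusted p = 0.00251, at the floor in some livers), and 1 fall of 10, Gas6 (-0.75 ± 0.20, adjusted p = 0.00531), with 789 to 936 in Scd1-/- and 902 to 1170 in Scd1+/+ VLF livers. Neither portal fibroblast count stood above the background.

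Sinusoidal endothelial markers gave 1 rise, Lyve1 (2.45 ± 0.37, adjusted p = 3.31e-05), and 7 falls of 12, among them Dpp4 (-0.97 ± 0.086, adjusted p = 5.13e-08) and Oit3 (-0.70 ± 0.076, adjusted p = 6.31e-07), with a summed intensity of 3801 to 5300 in Scd1-/- and 4454 to 5161 in Scd1+/+ VLF livers. Hepatocyte markers gave 4 falls of 8, among them Asgr1 (-0.76 ± 0.065, adjusted p = 3.58e-08), Apoh (-0.45 ± 0.042, adjusted p = 8.78e-08) and Hnf4a (-0.31 ± 0.077, adjusted p = 0.00355), and their sums of 102100 to 107700 in Scd1-/- and 109200 to 113000 in Scd1+/+ VLF livers fit the liver label. Mesothelial markers gave 2 falls of 6, Upk1b (-0.33 ± 0.054, adjusted p = 0.000104) and Upk3b (-0.47 ± 0.15, adjusted p = 0.0235), with Lrrn4 at the floor in all livers, Msln, Wt1 and Gpm6a at the floor in some, and a sum of 152 to 168 in Scd1-/- and 178 to 199 in Scd1+/+ VLF livers. Lymphocyte markers gave 2 falls of 7, near the background, Ms4a1 (-0.37 ± 0.12, adjusted p = 0.0175) and Cd4 (-0.19 ± 0.068, adjusted p = 0.0369), with Cd3g at the floor in some livers and a sum of 345 to 415 in Scd1-/- and 383 to 487 in Scd1+/+ VLF livers. The part of these cells in the falls of Col18a1, Fn1 and Col15a1 was not tested.

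Per liver, the summed intensity of the 40 genes was 18190, 19740, 19880, 17520 and 15780 in Scd1-/- VLF livers, where the macrophage sum was 24350, 25270, 15810, 21990 and 19910. In Scd1+/+ VLF livers the 40 genes summed to 14540, 17090, 14250, 14960 and 14890 and the macrophage markers to 6702, 7564, 6454, 7285 and 7362. The sums of the 40 genes overlapped between the groups through Scd1+/+ liver 2 alone, while the macrophage sums did not overlap. Fn1, which fell, was the largest part of the 40-gene sum (4592 ± 456 in Scd1-/- and 5823 ± 627 in Scd1+/+ VLF livers, mean ± SD, n = 5 each). Scd1+/+ liver 2 had the highest Fn1 value of its group, 6936. The overlap of the sums therefore does not describe most of the 40 genes.

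**Figure D4:**
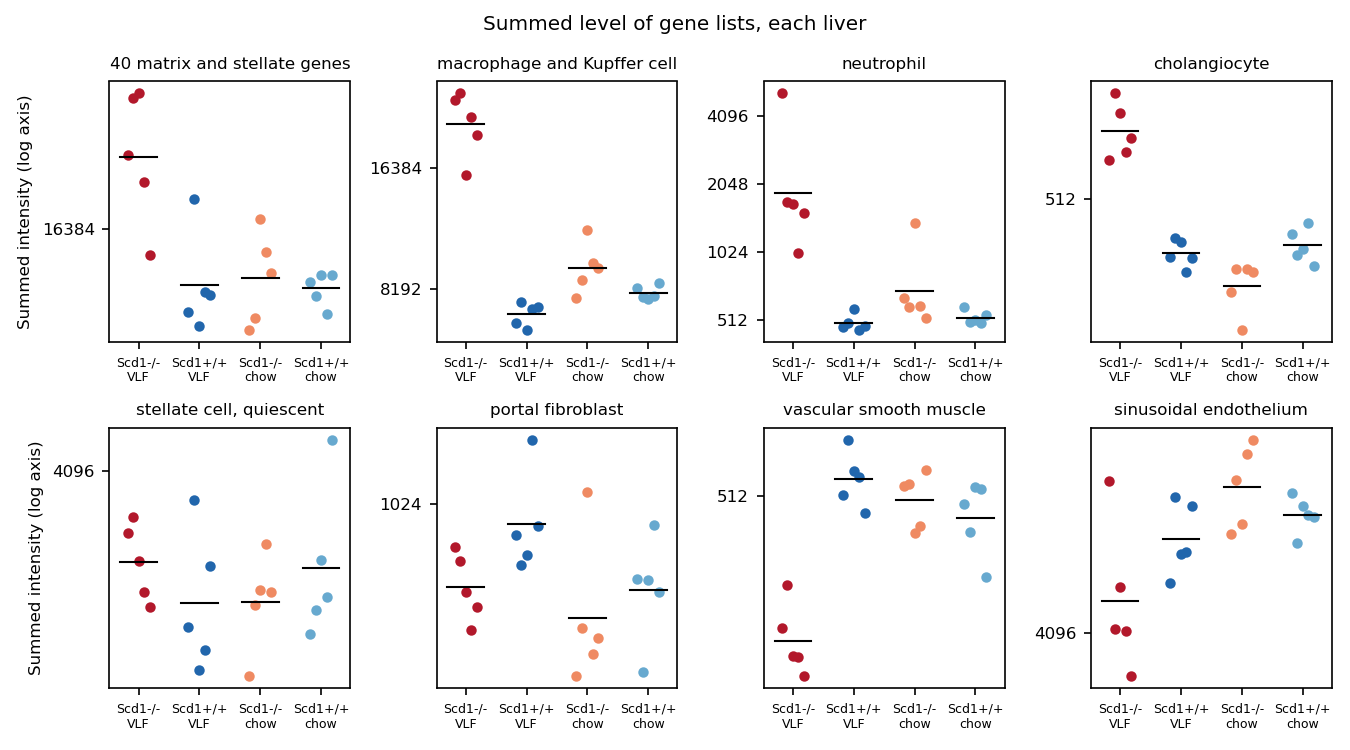
Summed normalized intensity of 8 gene lists in every liver on a log axis, with groups from left to right Scd1-/- VLF, Scd1+/+ VLF, Scd1-/- chow and Scd1+/+ chow and bars at the geometric mean. The macrophage, neutrophil and cholangiocyte sums of the Scd1-/- VLF livers lie above those of the Scd1+/+ VLF livers, the vascular smooth muscle sums lie below, and the resting stellate cell sums overlap.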

How the data were processed

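Total RNA of flash-frozen liver pieces was made into biotin-labelled cRNA, per the labels' protocols, and hybridized to 20 Mouse 430 2.0 arrays. The values the authors deposited are linear intensity, as their range shows. MAS5 and RMA both appear in the tools listed per the submitters' processing notes, and the sources used here do not say which one made these values.

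The table held 45101 probe sets, 64 of them controls. Each array was scaled to a common median of 34.45, floored at 16, log2-transformed and quantile-normalized, and the group means were fitted with limma 3.58.1 in R 4.3.3 (lmFit and eBayes, residual degrees of freedom 16, prior 1.96), with Benjamini-Hochberg adjustment over 45037 probe sets. Among them 6669 probe sets were at the floor on part of the arrays, and the 9094 at the floor everywhere entered the adjustment as unchanged without shaping the variance estimate. The probe table named 1 gene for 34945 probe sets, several for 932 and none for 9160. Each of 18193 genes, 16196 of them measurable, was read from its brightest probe set. Errors printed with ± are standard errors of log2 differences, or SD where stated, with n = 5 livers a group. The number of arrays limits the precision. Nothing says that the livers of a group differ in litter or cage. The limma p-values set each difference against the spread between these livers, estimated over all groups together. Groups wholly at the floor, as for Mmp13 and Mmp12, add no spread, so the p-values of these genes do not measure it.

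The genes and lists were chosen with earlier results of these data known. Values per liver are given for up to 3 genes a role with the smallest adjusted p on the VLF diet and for each gene with a called interaction. Up to 4 genes of a pathway list and up to 3 of a marker list are named by the same rule. Nid1, Tgfbr2 and Mmp12 per liver, and genes named for a probe set or a single liver, were picked after their values were seen. Alternatives were other scalings, floors, probe set rules, fits and left-out arrays. Python 3.11.15 with matplotlib 3.10.9 made the figures.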

Additional observations from a re-analysis of the deposited data

Results flagged for a closer look

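Single livers stood apart by Dixon's test in 13 of 155 groups of 5, where chance flags about 1 in 20. Scd1-/- VLF liver 5 was low for Col3a1 (503, others 886 to 939) and Col5a2 (82.5, others 132 to 149) and high for Tgfb3 (59.1, others 36.7 to 41.6). Scd1-/- VLF liver 2 was low for Lrat (89.2, others 142 to 171) and Lox (22.9, others 25.7 to 26.5), and Scd1-/- VLF liver 3 was high for Tgfb2 (26.1, others 16 to 17.8). Among Scd1+/+ VLF livers, liver 1 was high for Col15a1 (66.3), liver 2 for Fn1 (6940), liver 4 for Mmp14 (223) and liver 5 for Thbs1 (19.3). Scd1-/- chow liver 3 was low for Col5a2 (87.7, others 115 to 126), and Scd1-/- chow liver 4 high for Thbs1 (20.3). Scd1+/+ chow liver 5 was high for Col5a2 (187, others 57.2 to 75.2).

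In 23 genes the Scd1-/- minus Scd1+/+ difference itself differed between the diets (limma interaction, log2, VLF minus chow). It was positive for the collagens Col1a1 (1.11), Col1a2 (1.28), Col3a1 (1.64), Col4a1 (1.55), Col4a2 (0.90), Col6a1 (0.82) and Col6a3 (0.58), and for the proteoglycans Dcn (1.06), Lum (1.05) and Bgn (0.80). It was positive for Sparc (0.70), Thbs1 (0.39), Mmp13 (1.07), Mmp14 (1.54), Timp1 (1.75), Timp2 (0.54), Acta2 (0.77), Tagln (0.64), Vim (1.96) and Tgfb1 (0.63). It was negative for Col15a1 (-0.61), Col18a1 (-0.97) and Fn1 (-0.52). Of the 23, 10 lost the call under at least 1 other setting or left-out liver. Col3a1 gave 0.095 (adjusted p = 0.54) with its single-gene probe set. With the probe set of largest variance Sparc gave 0.13 (adjusted p = 0.947) and Tgfb1 0.225 (adjusted p = 0.622). Mmp13 gave 0.18 (adjusted p = 0.461) at a floor of 32, and Col15a1 -0.23 (adjusted p = 0.424) under scaling on the hybridization controls.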

How the results depend on the processing

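Leaving out each array in turn gave 22 to 25 genes up and 3 to 4 down between Scd1-/- and Scd1+/+ VLF livers, 22 to 23 up and 3 down between the diets in Scd1-/- livers, and 18 to 21 positive and 3 negative interactions. On chow it gave 0 to 2 up and 0 to 1 down, and between the diets in Scd1+/+ livers 0. Other settings gave 21 to 25 up on the VLF diet, 19 to 33 up between the diets in Scd1-/- livers and 18 to 27 positive interactions, with no share of all genes taken under them. Scaling on the hybridization controls left 1 fall in each of these 3 comparisons, and on chow brighter probe sets only and the mean of a gene's probe sets gave 2 falls each.

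Among results called in the reported values or under the alternative, directions turned with the choice of probe set and under no other setting tried. Small differences called in neither, such as those of Col14a1, Timp3 and Des, changed sign under other settings too. With the mean of a gene's probe sets Loxl1 gave 0.29 on the VLF diet, 0.33 between the diets in Scd1-/- livers and 0.36 for the interaction, and with the probe set of largest variance 0.70, 0.68 and 0.78. With single-gene probe sets Acta2 gave -0.15, -0.16 and -0.19. With the largest variance, on the VLF diet, Col5a1 gave 0.41, Sparc -0.46, Timp2 -0.30 and Tgfb1 -0.16, between the diets Fn1 gave 0.16 and Sparc -0.11, and the Fn1 interaction was 0.16. Here the alternative reads another probe set. At a floor of 32 Thbs1 had no value above the floor.

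A replicate block gave 25 up and 3 down on the VLF diet, 23 up and 3 down between the diets in Scd1-/- livers and 19 positive and 3 negative interactions. Lrat (adjusted p = 0.0508) and the Thbs1 interaction (adjusted p = 0.0541) were lost and Lox (adjusted p = 0.0441) and the Ccn2 diet difference in Scd1-/- livers (adjusted p = 0.0381) gained. Equal numbers did not pair the livers: over 30 pairs the correlation of deviations was -0.25 to 0.23, over 0.1 in 6, with the own number best in 5. Dim genes limit Thbs1, Lox, Tgfb2 and Mmp13.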
